A study of Mus musculus with 4 samples.

Results

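The microRNAs (miRNAs) described here are the 6 known from muscle that the array carried as mmu-miR-1, mmu-miR-133a, mmu-miR-133b, mmu-miR-206, mmu-miR-143 and mmu-miR-145. They are 6 of 567 mouse miRNAs on the array and were picked by name, by a rule that uses no measured value, although earlier results of these data were known when the set was drawn up. miR-1, miR-206 and the miR-133 family are background markers of striated muscle, where they act in the differentiation and proliferation of muscle cells. miR-143 and miR-145 are known from smooth muscle and other contractile or stromal cells. In the testis, the contractile cells are the peritubular myoid cells around the seminiferous tubule, on the other side of the basement membrane from the Sertoli cells, and smooth muscle also lies in the walls of blood vessels.

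The study asked which Sertoli cell miRNAs respond to androgen. RNA came from Sertoli cells isolated from B6129 male mice aged 5 to 7 weeks and pooled over 5 to 7 mice. The RNA was hybridised to 4 one-colour Agilent miRNA arrays in 3 groups. The Sham group (1 array) received a 0.2 cm Silastic tube under the skin and saline injected into the peritoneum. The Flut+Acy group (2 arrays) received flutamide, which blocks the androgen receptor, by tube and 20 mg/kg acyline, which blocks the receptor for gonadotropin-releasing hormone and so lowers gonadotropins and testosterone. The Flut+Acy+T group (1 array) received flutamide, 20 mg/kg acyline and testosterone. Flutamide and acyline were thus shared by both treated groups. How long the mice were treated before these arrays is not given in the sources used here. Whether separate pools of cells went onto the Flut+Acy arrays is not stated outright. The paper's array legend describes cells pooled for each group, and its methods average over 3 samples. Both Flut+Acy arrays may therefore hold 1 pool. The defining markers of Sertoli cells are protein-coding genes, which a miRNA array does not measure, so the labelled cell type could not be checked against them. Fewer cells of a type and less miRNA per cell cannot be told apart in such pools.

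Of the 6 miRNAs, mature sequences from RefSeq (GRCm38.p6) were held for 2, miR-133b and miR-206, which are shown because their genes are neighbours and the arrays detected the former and not the latter. Capitals mark the seed (bases 2 to 8), the stretch that pairs with target messenger RNAs.
mmu-miR-133b: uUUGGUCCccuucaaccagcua
mmu-miR-206: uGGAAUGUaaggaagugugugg
They lie on the plus strand at chr1:20682834-20682855 for miR-133b and chr1:20679055-20679076 for miR-206. They do not share a seed.

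The arrays differed in overall brightness and in background, and these differences touch every value below. Summed positive total signal was 57940 scanner units on the Sham array, 139602 and 161460 in the Flut+Acy pair and 201919 for Flut+Acy+T. Detected mouse miRNAs numbered 193, 275, 270 and 102 in the same order. The Flut+Acy+T array stood apart. The SD of its negative control spots, with any flagged spots kept, was 1326 units against 2.72 to 7.45 on the other arrays. The scanner software flagged 535 of its 12493 spots as non-uniform, against 0 to 4 on the others. The lowest total signal it called detected was 238 units against 2.67 on the Sham array. The Flut+Acy arrays correlated at r = 0.997 (log2 total signal, 189 miRNAs detected on the Sham and both Flut+Acy arrays).

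miR-1 was detected on all 4 arrays. Its total signal before normalization, with the error that the scanner software gives, was 248 ± 23.2 units on the Sham array, 313 ± 29.1 and 402 ± 37.3 in the Flut+Acy pair and 554 ± 135 with testosterone added. The Sham array was thus the lowest before normalization. After quantile normalization over the 567 miRNAs, which gives every array the same distribution of values, its log2 signal was 9.70 on Sham, 8.33 and 8.39 in the Flut+Acy pair and 8.46 with testosterone added. The Sham array was the highest on this scale, and the Flut+Acy+T array lay close above the Flut+Acy pair.

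miR-133b, whose sequence is given above, was also called detected on all 4 arrays. Its total signal was 168 ± 15.1 units on Sham, 205 ± 17.6 and 247 ± 21.7 in the Flut+Acy pair and 321 ± 127 with testosterone added. Normalized log2 signal was 9.19 on Sham, 7.89 on each Flut+Acy array and 7.24 on Flut+Acy+T. The order of the groups was therefore opposite before and after normalization.

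miR-133a gave 83.6 ± 7.74 units on Sham, 117 ± 9.87 and 137 ± 12.0 in the Flut+Acy pair and 62.3 ± 124 with testosterone added, where it was not detected. Its normalized log2 signal was 8.46 on Sham, 7.22 and 7.27 in the Flut+Acy pair and 4.56 with testosterone added. The Sham and Flut+Acy totals of miR-133a all lay under 238 units, the lowest total called detected on the Flut+Acy+T array, so at those unnormalized levels that array would not have called it detected.

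miR-206 was detected on no array. Its total signal was 0.551 ± 2.47 units on Sham, 0.722 ± 2.63 and 3.43 ± 3.88 in the Flut+Acy pair and 83.7 ± 124 with testosterone added. None of the 10 spots of either of its probes was well above background on any array, and it entered no test.

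Of the smooth muscle pair, miR-143 was detected on all 4 arrays. Its total signal was 1227 ± 95 units on Sham, 1847 ± 138 and 2185 ± 157 in the Flut+Acy pair and 3399 ± 274 with testosterone added. Normalized log2 signal was 11.60 on Sham, 10.88 and 10.97 in the Flut+Acy pair and 11.34 with testosterone added. Flut+Acy+T lay between the Flut+Acy arrays and Sham on the normalized scale.

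miR-145 gave 57.5 ± 5.00 units on Sham, 97.5 ± 7.92 and 120 ± 9.87 in the Flut+Acy pair and 152 ± 124 with testosterone added, where it was not detected. Normalized log2 signal was 8.08 on Sham, 7.02 and 7.05 in the Flut+Acy pair and 5.89 with testosterone added. As for miR-133a, its totals on the other 3 arrays were below the lowest total detected on the Flut+Acy+T array.

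**Figure D1:**
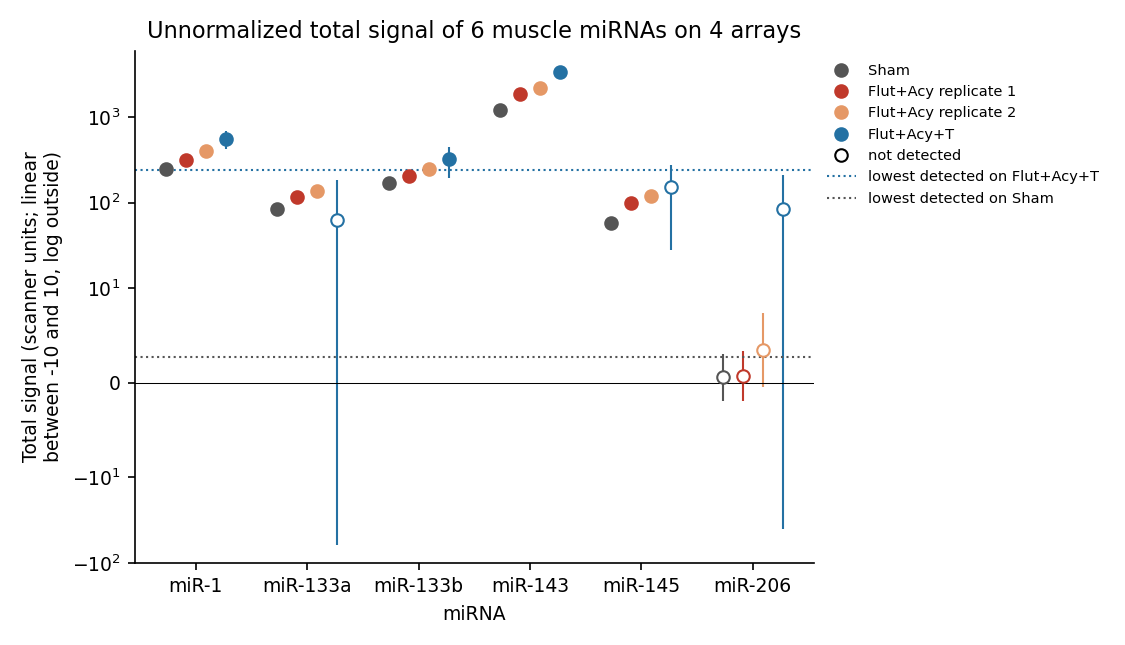
Total signal before normalization (vertical axis, scanner units, linear near 0 and logarithmic further out) of the 6 miRNAs (horizontal axis) on each of the 4 arrays. Points are single arrays, error bars are the error given by the scanner software, open circles were not detected, and dotted lines mark the lowest total signal called detected on the Sham array (2.67) and the Flut+Acy+T array (238). The Sham array is the lowest of the detected values for each of the 5 detected miRNAs.

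Flut+Acy against Sham asks what changed when androgen action was blocked. On the normalized scale all 5 detected miRNAs were lower on the Flut+Acy arrays, and each passed an adjusted p of 0.05 in limma's test over 298 miRNAs detected on 1 array or more, of which 28.5% were called lower. miR-1 was 2.52-fold lower (log2 difference -1.33, SE 0.04, limma adjusted p = 0.0195), miR-133b 2.45-fold lower (-1.30, SE 0.0069, adjusted p = 0.00502) and miR-133a 2.33-fold lower (-1.22, SE 0.03, adjusted p = 0.0170). Of the smooth muscle pair, miR-145 was 2.07-fold lower (-1.05, SE 0.02, adjusted p = 0.0147) and miR-143 1.60-fold lower (-0.68, SE 0.06, adjusted p = 0.0457). A difference of at least 2-fold was reached by 4 of the 5, all but miR-143, beside 13.8% of the 283 miRNAs that allowed a fold. Their median log2 difference was -1.22, beside -0.15 over all 298 and -0.37 over the 189 miRNAs detected on the Sham and both Flut+Acy arrays. The spread in this test comes from the Flut+Acy arrays alone (1 residual degree of freedom), the Sham array is assumed to vary as that pair did, and the values of 55 tested miRNAs were identical on that pair, miR-133b among them, so its SE comes from the prior alone. Scaling each array to the 75th percentile of miRNAs detected on all 4 arrays left 3 of the 5 called lower and none at 2-fold. The median over all 298 was itself 0.35 in that setting. With no filter on detection only 1 was called, miR-133b, whose SE was then 1.06e-15 because its values were identical on the Flut+Acy pair. The share of all miRNAs called in these settings is not given, so these counts cannot be read as particular to the members.

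The direction of this difference depended on normalization. Without normalization all 5 were higher on the Flut+Acy arrays, miR-1 by 0.52, miR-133a by 0.60, miR-133b by 0.42, miR-143 by 0.71 and miR-145 by 0.91 on the log2 scale, but so were 98.9% of the 189 miRNAs detected on the Sham and both Flut+Acy arrays, with a median of 1.54. As ratios to Sham, the 5 ran from 1.22 to 1.70 on Flut+Acy replicate 1 and from 1.47 to 2.09 on replicate 2, where the median miRNA stood at 2.67 (190 miRNAs) and 3.15 (191 miRNAs). The statement that holds on both scales is thus a relative one: the muscle miRNAs stood below the median miRNA of these arrays in the Flut+Acy to Sham ratio. Between 5.29% of the 189 (miR-133b) and 24.9% (miR-145) had a smaller unnormalized ratio. The median of the members less that of all miRNAs was -0.84 after quantile normalization and -0.95 without normalization, and a factor per array cannot change the latter. It was -0.83 from the processed spot signals, -0.50 after normexp background correction and -0.86 in the deposited normalized table, where 4 of the 5, all but miR-1, lay below the median.

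**Figure D2:**
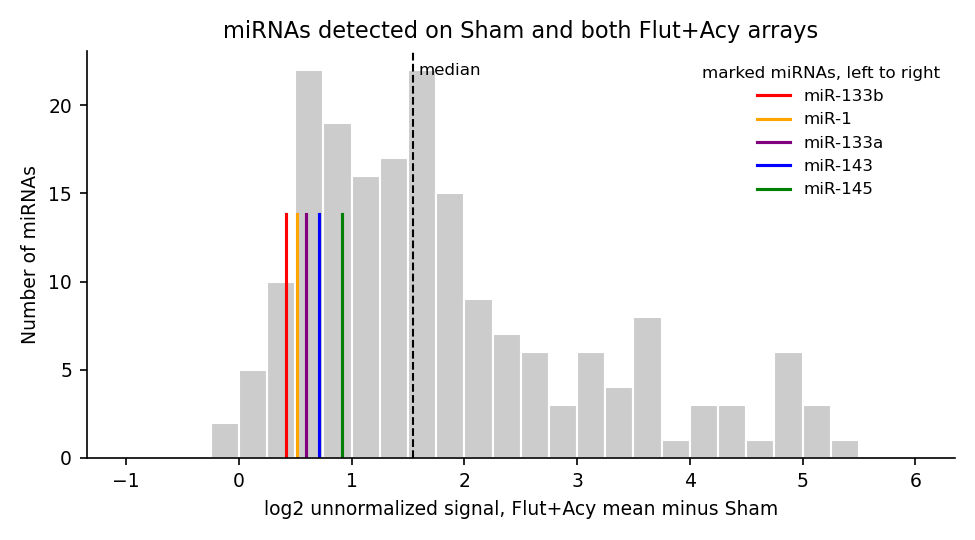
Histogram of the unnormalized log2 difference between the mean of the Flut+Acy arrays and the Sham array (horizontal axis) for the 189 miRNAs detected on all 3 (vertical axis, number of miRNAs). The 5 muscle miRNAs are marked between 0.42 and 0.91, to the left of the median of 1.54.

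Flut+Acy+T against Flut+Acy asks what testosterone added while flutamide and acyline were kept. It shares the Flut+Acy arrays with the comparison above. miR-1 differed by 0.10 (log2, SE 0.04, limma adjusted p = 0.216) and miR-143 by 0.42 (SE 0.06, adjusted p = 0.0608), and neither passed the threshold. Scaled to the 75th percentile of all mouse miRNAs, both turned negative, at -0.99 and -0.87. miR-133b was lower by a log2 difference of -0.65 (SE 0.0069, adjusted p = 0.00494), but higher by 0.51 without normalization, and on the Flut+Acy+T array both of its probes were well above background in 0 of 10 spots. miR-133a and miR-145, not detected on the Flut+Acy+T array, passed the test as lower (adjusted p = 0.00536 and 0.00758) but only bounds can be given, on the normalized scale, where Flut+Acy was at least 1.46-fold higher for miR-133a and at least 1.26-fold higher for miR-145. Unnormalized totals give no bound, since those of Flut+Acy lay under 238 units, and the undetected value of miR-145 was 0.49 higher with testosterone added. Thus 3 of the 5 were called lower, beside 53.7% of all tested miRNAs, and none was at least 2-fold lower, beside 12.8% of 297. A share of 3 in 5 lies near that background. Their median was -0.65, beside -1.08 over all 298, but both medians include miRNAs not detected on the Flut+Acy+T array. Over miRNAs detected on that array and both Flut+Acy arrays, the median was 0.10 for 3 members and 0.20 for all 83.

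Flut+Acy+T against Sham asks whether the levels under testosterone stood where they did without any drug, and shares its arrays with both other comparisons. miR-1 was lower (log2 difference -1.24, SE 0.05, limma adjusted p = 0.0169), as was miR-133b (-1.95, SE 0.01 from the prior alone, adjusted p = 0.00256), whose Flut+Acy+T value rests on spots that were not well above background. On the normalized scale miR-133a was at least 3.40-fold lower (adjusted p = 0.00529) and miR-145 at least 2.62-fold lower (adjusted p = 0.00597), but their Sham totals lay under 238 units, so unnormalized totals give no bound, and the undetected value of miR-145 was 1.40 higher. miR-143 differed by -0.26 (SE 0.07, adjusted p = 0.151), which did not pass. Thus 4 of the 5 were called lower, beside 48.3% of all tested miRNAs, and 4 were at least 2-fold lower, beside 16.5% of 218. Their median was -1.95, beside -0.47 over all 298, and both medians include miRNAs not detected on the Flut+Acy+T array. Over miRNAs detected on that array and Sham, the median was -1.24 for 3 members and -0.03 for all 77. This comparison sets 1 array against 1 array. The p-values borrow the spread of the Flut+Acy arrays, which are in neither group. Those arrays had negative control SDs of 2.72 and 7.45 against 1326 on the Flut+Acy+T array. Unnormalized, the 3 that were detected on the Flut+Acy+T array stood 2.23-fold (miR-1), 1.91-fold (miR-133b) and 2.77-fold (miR-143) above Sham, where the median of 77 miRNAs was 3.81-fold.

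**Figure D3:**
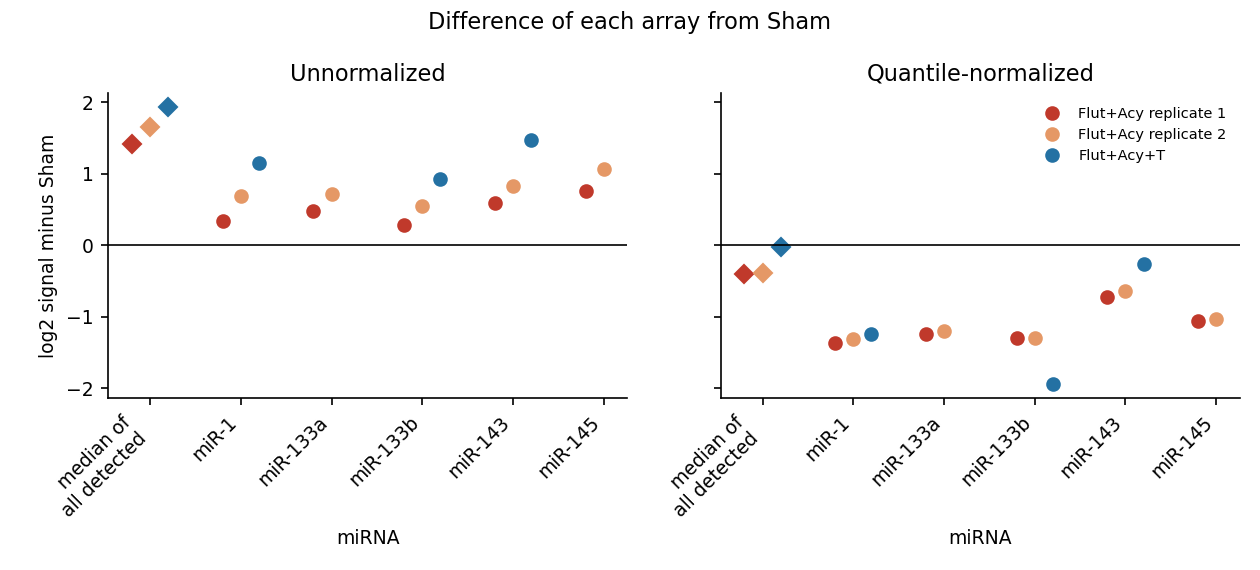
Log2 signal of each array minus Sham (vertical axis) for the 5 detected muscle miRNAs (circles) and for the median of all miRNAs detected on that array and Sham (diamonds), unnormalized on the left and quantile normalized on the right, with no point where a miRNA was not detected. The Flut+Acy circles all lie below the diamonds of their arrays in both panels, and on the right they lie between -1.36 and -0.64.

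Each miRNA was measured by 2 probes of 10 spots. On the Flut+Acy arrays the 2 probes of miR-1 gave log2 differences from Sham that were 0.07 and 0.02 apart, those of miR-143 0.15 and 0.34 apart, and those of miR-145 0.24 and 0.22 apart. Those of miR-133b were 0.38 and 0.13 apart, and those of miR-133a 0.80 and 0.54 apart. On the Flut+Acy+T array the brighter probe of miR-1 was well above background in 10 of 10 spots and the dimmer in 0 of 10, while both probes of miR-133b were in 0 of 10 although the software called that miRNA detected. Its probes were 3.20 apart there, and those of miR-1 2.16 apart. The values of miR-133b on that array therefore rest on spots near its background. For miR-133a the dimmer probe gave -34.9 units on that array, which lowered its total. Its brighter probe gave 97.1 units there, against 71.8 on Sham and 91.0 and 110.6 in the Flut+Acy pair. Both probes of miR-143 were well above background in 10 of 10 spots on every array.

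miRNAs whose genes lie close together can be read from a shared transcript, and the ratios within such pairs do not change when a whole array is multiplied by a factor. miR-143 and miR-145 lie 1319 bases apart in the mm9 positions of the array's design, and miR-1 and miR-133a 2554 bases apart. The unnormalized log2 difference from Sham of miR-143, less that of miR-145, was -0.17 and -0.23 on the Flut+Acy arrays. The same for miR-1 less miR-133a was -0.15 and -0.02. For miR-1 and miR-133a these values are within the gap between the probes of miR-133a. For miR-143 and miR-145 they are within the probe gap of miR-145 on replicate 1 (0.24) and of miR-143 on replicate 2 (0.34). After quantile normalization, which is no single factor per array, the order of miR-143 and miR-145 turned, with miR-143 at -0.73 and -0.64 and miR-145 at -1.06 and -1.03. miR-206 lies 3760 bases from miR-133b and was not detected, while miR-133b was.

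By distance between normalized log2 patterns over the 4 arrays, among 75 other miRNAs detected on all of them, the most alike were miR-483 (0.47), miR-99a (0.47) and miR-125a-5p (0.54) for miR-1. For miR-143 they were miR-23b (0.09), let-7e (0.09) and miR-24 (0.12). With 4 points these distances are descriptions. None is given for miR-133a, miR-133b and miR-145, whose values on the Flut+Acy+T array were undetected or rested on spots not well above background.

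Of 9 other miRNAs known from muscle on the array, 4 were tested against Sham in Flut+Acy, with 1 called lower (miR-21, -0.54, limma adjusted p = 0.0457) and 1 higher (miR-22, 0.15, adjusted p = 0.0236), and miR-208a, miR-208b and miR-499 of heart and skeletal muscle were detected on no array. Among 7 miRNAs known from fibroblasts and stroma 5 were called lower, with a median of -0.79, and among 7 tested of blood and endothelium 4 were called lower, also with a median of -0.79, beside 28.5% of all tested miRNAs. Among 6 tested of germ cells 3 were called higher, beside 25.5% of all tested miRNAs, and none lower, with a median log2 difference of 2.00. Without normalization the medians of the fibroblast and blood lists were above 0, at 0.92 for 7 and 1.52 for 5 miRNAs detected on the Sham array and each Flut+Acy array, beside 1.54 over all 189, and that of 3 germ cell miRNAs was 4.08. Of the summed signal, the muscle miRNAs took 3.08% on Sham, 1.85% and 1.92% in the Flut+Acy pair and 2.26% with testosterone added. Germ cell miRNAs took 0.827%, 5.15%, 4.63% and 2.06% in the same order. Most of the muscle sum was miR-143, with 1227 of 1785 units on Sham and 3399 of 4571 with testosterone added. The sums include undetected values, on the Flut+Acy+T array those of miR-133a, miR-145 and miR-206. The muscle share therefore does not describe its members alike. What part the germ cell signal or the makeup of the pools had in the lower relative level of the muscle miRNAs was not tested.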

How the data were processed

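Total RNA of pooled Sertoli cells was hybridised to 4 one-colour arrays on 1 slide (mm9 design). The authors deposited, per the file headers, Feature Extraction 9.5.3.1 output with linear intensity values, and a table of normalized intensity values made by quantile normalization in MATLAB, which served as an alternative. Total gene signal of 567 mouse miRNAs was quantile normalized, floored at 5.46 units and taken to log2, and groups were compared with limma 3.58.1 in R 4.3.3 over the 298 miRNAs that 1 or more arrays detected, and p-values were adjusted by Benjamini-Hochberg. The number of arrays limits the precision, and p-values measure only the spread between the Flut+Acy arrays, which may be technical. A miRNA not detected on any array of a group was given as a bound: the mean of the brighter group over the higher of its own signal and the lowest detected signal. The miRNAs named were the 6 members, the 3 nearest patterns of each (printed for miR-1 and miR-143) and listed members of 5 background lists. Members and lists were chosen with earlier results of these data known. Alternatives covered the normalization, background correction, filters, the deposited table and leaving out each Flut+Acy array. A further alternative used pairwise t-tests without limma's moderation, in place of the methods' single-factor analysis of variance with Tukey test. Of the scripts, only the limma fit was tested on simulated data. Unlike the real arrays, these had the same spread on every array and no differences in brightness or background.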

Additional observations from a re-analysis of the deposited data

How the results depend on the processing

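Called members were counted under 10 alternatives and at least 2-fold lower members under 12, or 10 for Flut+Acy+T against Sham, where leaving out a Flut+Acy array changes neither group. The share of all miRNAs is not given beside these counts, so a change in count cannot be read as particular to the members. For Flut+Acy against Sham the median over all tested miRNAs was itself -0.15 in the main setting. It was 0.35 with the 75th percentile of miRNAs detected on all 4 arrays and 1.68 without normalization. For Flut+Acy against Sham the counts were 5 and 4. They became 3 and 0 with each array scaled to the 75th percentile of detected miRNAs, 1 (higher) and 0 without normalization, and 3 and 2 for miRNAs detected on all 4 arrays, where only 3 members could be tested. The called count was 1 without a filter (miR-133b, through identical values on the Flut+Acy pair) and 1 in the deposited table. The 2-fold count was 2 with normexp background. For Flut+Acy+T against Flut+Acy (3 and 0), the called count was 1 with the percentile of detected miRNAs, 5 with that of all miRNAs, 1 without normalization and 1 for miRNAs detected on all arrays, and the 2-fold count was 1 with the percentile of all miRNAs and 2 in the deposited table. For Flut+Acy+T against Sham (4 and 4), the counts were 2 and 0 with the percentile of detected miRNAs, 2 and 2 for miRNAs detected on all arrays, and 3 and 2, all higher, without normalization. Pairwise t-tests without limma's moderation stood in for the methods' single-factor analysis of variance and Tukey test, which were not run. They called 0 in each comparison after adjustment, among members and among all tested miRNAs. Unadjusted p was under 0.05 for 3, 2 and 3 of 4 members, against 5, 4 and 4 of 5 in limma. miR-133b had no p-value in these t-tests, since its values were identical on the Flut+Acy pair.

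Direction reversed without normalization for Flut+Acy against Sham (miR-1 0.52, miR-133a 0.60, miR-133b 0.42, miR-143 0.71, miR-145 0.91), for Flut+Acy+T against Flut+Acy (miR-133b 0.51, miR-145 0.49) and for Flut+Acy+T against Sham (miR-1 1.16, miR-133b 0.93, miR-143 1.47, miR-145 1.40). For Flut+Acy+T against Flut+Acy it also reversed with the percentile of all miRNAs (miR-1 -0.99, miR-143 -0.87), with normexp (miR-1 -0.28) and in the deposited table (miR-1 -0.94), where miR-1 was 0.23 in Flut+Acy against Sham. The cause was not tested. Leaving out either Flut+Acy array left 4 members at least 2-fold lower than Sham (miR-1 -1.36 to -1.31, miR-143 -0.73 to -0.64), a value with no test since no spread then remains. No paired analysis was possible because the groups share fewer than 2 replicate numbers.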

Other observations

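In the deposited normalized table miR-1 read 11.0 units on Sham, 12.6 and 13.2 in the Flut+Acy pair and 6.69 with testosterone added. On the Sham array this was 0.0133 of its normalized total signal, where the median of 191 detected miRNAs was 0.439 and 6 were lower. miR-133b read 362 on Sham, 138 and 179 in the Flut+Acy pair and 59.0 with testosterone added in that table, and miR-145 read 53.2, 21.5, 22.4 and 16.6 in the same order. How spots were combined in that table is not given in the sources used here.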
